A study of Drosophila melanogaster with 6 samples.

Results

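The genes described here encode the proteins of the mitochondrial ribosome of Drosophila. They were chosen by name, as the probe sets to which the array annotation gives a single gene symbol that starts with mRpL (large subunit) or mRpS (small subunit). This gave 66 of 13966 probe sets and 64 genes, 43 of the large and 21 of the small subunit. The genes mRpL11 and mRpL12 had 2 probe sets each and are represented by the probe set with the higher mean log2 signal over the 6 arrays. RefSeq holds 73 fly genes with such a symbol, and all 64 members carry the same symbol there. The other 9 (mRpL27, mRpL34, mRpL37, mRpL53, mRpS5, mRpS10, mRpS14, mRpS21 and mRpS23) have no probe set of their own in the annotation used here, and the 1 probe set that names mRpS10 together with another gene was left out.

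Mitochondria keep a ribosome of their own, which translates the few messenger RNAs of the mitochondrial genome, all for subunits of the respiratory chain and ATP synthase. Its ribosomal RNAs come from mitochondrial DNA, whereas its proteins are encoded in the nucleus, made in the cytoplasm and imported. Some of these proteins descend from bacterial ribosomal proteins and others were added in mitochondria. In flies, mutations in genes of this set slow growth and development, and a mutation in tko, the gene of small subunit protein S12, causes seizures after mechanical shock.

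Adult heads of flies that carried the pan-neuronal driver elav-gal4 together with a uas-lark transgene were compared with heads of flies that carried the driver alone. LARK is an RNA-binding protein. The LARK overexpression flies came from elav-gal4 mothers and uas-lark fathers and the control flies from elav-gal4 mothers and w1118 fathers. Each population mixed the sexes, with elav-gal4 or elav-gal4/+ as the driver genotype, and the transgene was heterozygous (uas-lark/+). The driver is directed at neurons, while the RNA came from whole heads and so also from glia, fat body and muscle. All flies were kept at 25°C in 12 h light and 12 h dark and frozen at ZT6, 6 h after lights-on, and no age is given in the labels. The series' description gives 1 RNA sample for each genotype, with labeling and hybridization done 3 times, so the errors below describe labeling and hybridization and not the spread between flies.

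Same-numbered arrays share a hybridization day and a scaling (2% trimmed mean of 150, 85 and 100 on days 1, 2 and 3), so signals are best read within a day. For the eIF-4a control, probe sets near the 3′ end outshone those near the 5′ end by 6.05 to 6.52 with LARK overexpression and by 2.81 to 3.02 in the control, and for actin by 5.51 to 6.21 and 1.89 to 3.41. For GAPDH the genotypes overlapped, at 5.06, 4.61 and 3.23 with LARK overexpression and 2.82, 4.04 and 2.95 in the control. This ratio is a measure of RNA quality and labeling. Of 7 neuron markers above a signal of 40, 3 were called lower (summed signal 581 to 1106 against 1340 to 2278 in the control, with brp at most 40 on every array), and of 9 gut markers 6 were called higher (811 to 2934 against 354 to 515). Photoreceptor, glia, fat body, muscle and reproductive tract markers gave 3 calls in 33 probe sets, all higher. Summed signals were higher without overlap for muscle (12782 to 13810.5 against 8603.3 to 11463) and reproductive tract (626.4 to 701.9 against 361.9 to 544.5). Those of photoreceptor, glia and fat body markers overlapped. The lark probe set itself read 191 ± 64.8 with LARK overexpression and 191 ± 33.6 in the control (SD, n = 3 arrays each), and these signals overlapped. Its log2 difference was 0.25, -0.13 and -0.22 on days 1, 2 and 3. After each array was centered on its median, the lark signals were higher with LARK overexpression without overlap, by 0.17 on the log2 scale (adjusted p = 0.63 from limma). The median log2 difference of all probe sets above 40 on at least 1 array was then 0.13, and 18.1% of them were separated upward. The part of RNA quality and of these other cell types in the differences below was not tested. In such head RNA, fewer cells of a type and less RNA per cell cannot be told apart.

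Across the mitochondrial ribosome, signals were slightly higher with LARK overexpression for most genes, but no gene passed the test. All 64 members read above 40 on at least 1 array, the level used to keep probe sets for the test, and 55 of them did so on all 6 arrays. Of all probe sets 67.5% passed this filter and 38.5% read above 40 on all arrays. The median log2 difference of the members, LARK overexpression minus control, was 0.16, with 43 members above 0 and 21 below. Over all 9432 kept probe sets the median was -0.07 and 43.8% lay above 0. The members thus lay 0.22 above all kept probe sets on the log2 scale, a distance that multiplying the signals of an array by a constant leaves as it is. The median itself rests on the scaling. It was -0.042, with 27 members above 0, without LARK overexpression array 1, and -0.013, with 31 above 0, without control array 2. A linear model over all kept probe sets (limma) called 0 members higher and 0 lower at an adjusted p under 0.05, where the same rule called 0.339% of all kept probe sets higher and 1.21% lower. The adjusted p of the members ran from 0.476 to 0.9993, and none had an unadjusted p under 0.05, against 10.8% of all kept probe sets.

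The precision of these values bounds what could be seen. Standard errors of the log2 difference ran from 0.43 to 0.68, since the scaling of the days enters the spread of each genotype, and the 95% interval of every member held 0. For mRpS7, a protein of the head of the small subunit, the log2 difference was 0.01 with an interval of -0.96 to 0.98, which reaches nearly 2-fold in either direction.

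Read within days, the median difference of the members was similar on each day. The median log2 difference of the 64 members was 0.19 on day 1, 0.15 on day 2 and 0.18 on day 3, and 50, 40 and 44 members lay above 0. The medians of all kept probe sets on these days were -0.03, -0.11 and -0.10. On all 3 days 30 members (46.9%) were higher with LARK overexpression, whereas 17.6% of all kept probe sets were. Only 3 members, mRpL54, mRpL10 and mRpL38, were lower on all 3 days, where 26.9% of all kept probe sets were. The other 31 members changed sign between days. The members' log2 differences of days 1 and 2 correlated at 0.41, of days 1 and 3 at 0.22 and of days 2 and 3 at 0.40 across the 64 genes, which share RNA samples and arrays. Over all kept probe sets the same values were 0.26, 0.33 and 0.62.

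**Figure D1:**
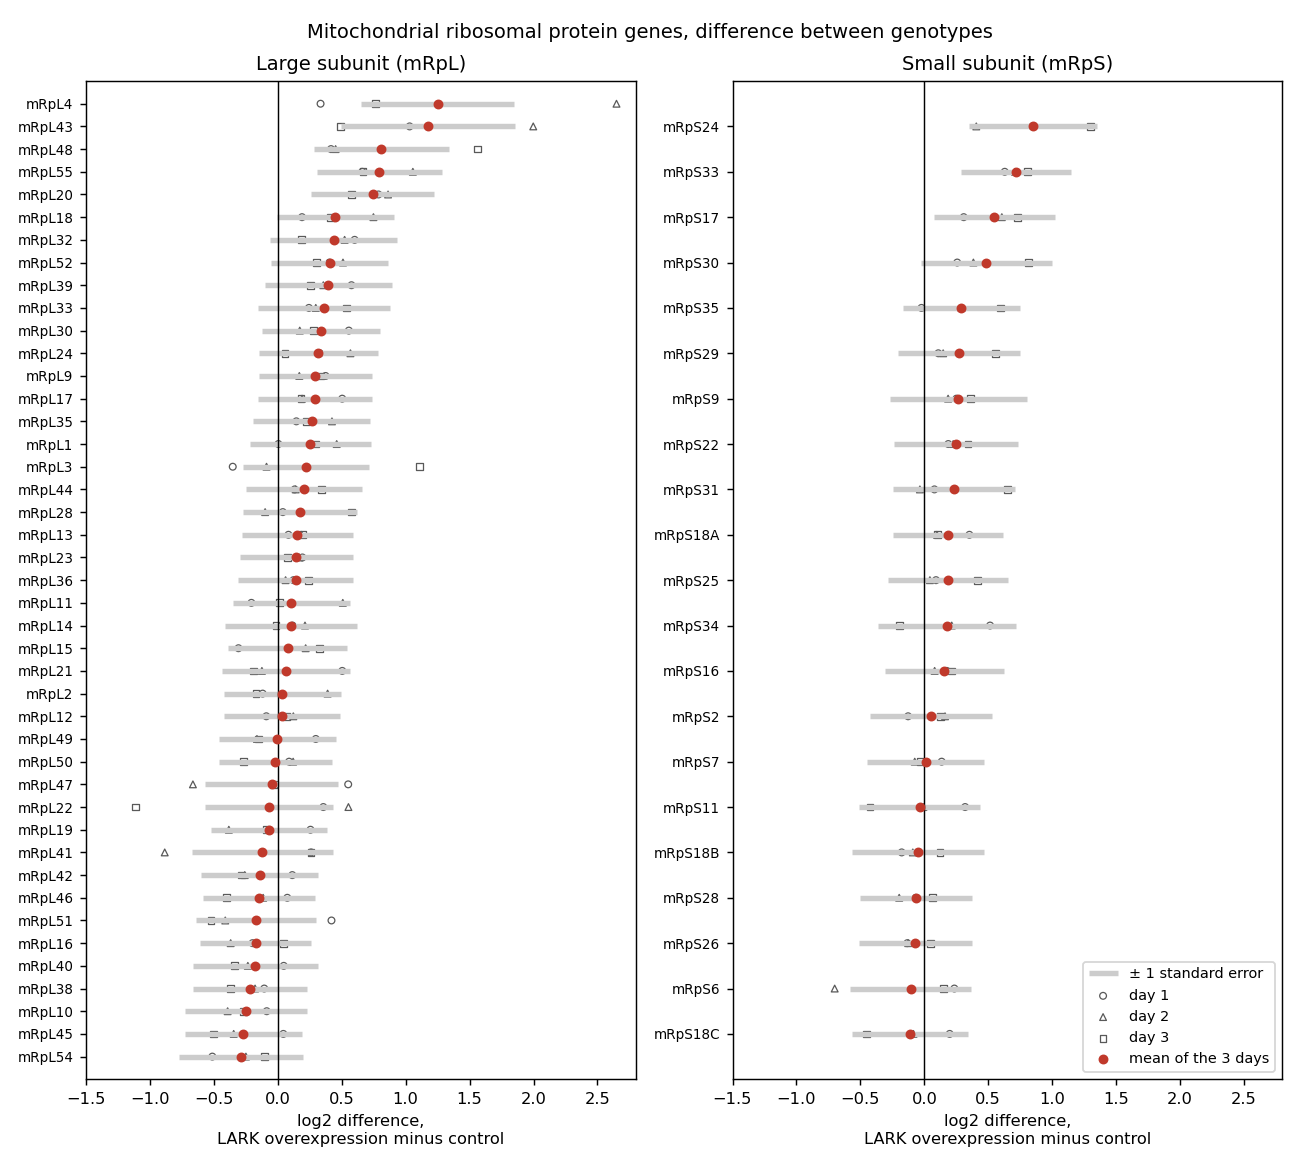
Log2 difference between genotypes (LARK overexpression minus control, horizontal axis) of each of the 64 genes, for the 43 large subunit genes on the left and the 21 small subunit genes on the right, in order of the mean. Open symbols are the differences on days 1, 2 and 3, red points their mean and grey bars 1 standard error from limma on either side. Most means lie between -0.3 and 0.5, and the few larger ones are all on the positive side, up to 1.25 for mRpL4, whose value is 0.63 with signals under 40 set to 40.

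The largest differences were all toward higher signal. Over 1.5-fold higher were 7 of the 64 members, mRpL4, mRpL43, mRpS24, mRpL48, mRpL55, mRpL20 and mRpS33. This share was close to the 9.52% of all kept probe sets. Over 1.5-fold lower were 0 members, against 18% of all kept probe sets. The remaining 57 members (89.1%) stayed within 1.5-fold, as did 72.4% of all kept probe sets.

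The highest value as deposited was that of mRpL4, whose bacterial counterpart lines the tunnel through which the new peptide leaves the ribosome. It read 100, 69.6 and 72.3 on LARK overexpression arrays 1, 2 and 3 and 79.3, 11.1 and 42.5 on control arrays 1, 2 and 3. The genotypes overlapped, and the control array of day 2 lay far below the other 5 arrays. The mean difference was 1.25 (log2, standard error 0.60, adjusted p = 0.476 from limma), made up of 0.34, 2.65 and 0.77 on days 1, 2 and 3. It rests on the control signal of 11.1, under the level of 40. With signals under 40 set to 40 the log2 difference of mRpL4 was 0.63, below those of mRpS24, mRpL55, mRpL20 and mRpS33, and without control array 2 it was 0.45. For mRpL43, a large subunit protein, the arrays read 150.8, 59.9 and 23.6 with LARK overexpression and 73.8, 15 and 16.8 in the control. The LARK overexpression array of day 3 and the control arrays of days 2 and 3 lay under 40. Its log2 difference was 1.17, with the widest interval of all members (standard error 0.68, adjusted p = 0.649 from limma). With signals under 40 set to 40 the log2 difference of mRpL43 was 0.54, and without LARK overexpression array 1 it was 0.50.

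Of the 7 genes over 1.5-fold, mRpS33, mRpL20 and mRpL55 differed least between days. The small subunit gene mRpS33 read 228.8, 193.8 and 207.4 with LARK overexpression and 148.0, 118.6 and 118.7 in the control. It was the 1 member of 64 whose deposited signals did not overlap between genotypes, a smaller share than the 3.88% of all kept probe sets separated upward. On the log2 scale it differed by 0.71 (standard error 0.43, adjusted p = 0.690 from limma), at 0.63, 0.71 and 0.81 on the 3 days. No member was separated downward, against 8.58% of all kept probe sets.

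For mRpL20, whose bacterial counterpart binds ribosomal RNA early in assembly, the signals were 173.3, 84.9 and 102.5 with LARK overexpression and 100.4, 46.7 and 68.6 in the control. Within each day the LARK overexpression array was higher, although the deposited signals of the genotypes overlapped across days. On average this came to 0.74 (log2, standard error 0.48, adjusted p = 0.737 from limma) and stood at 0.79, 0.86 and 0.58 on the 3 days. The large subunit gene mRpL55 read 372.5, 195.7 and 217.3 with LARK overexpression and 235.6, 94.1 and 137.0 in the control. It too was higher within each day, by 0.79 on average (log2, standard error 0.49, adjusted p = 0.70 from limma).

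The small subunit gene mRpS24 read 297.5, 197.7 and 152.1 with LARK overexpression and 165.5, 149.2 and 61.8 in the control. Its mean difference, 0.85 (log2, standard error 0.50, adjusted p = 0.664 from limma), was largest on day 3, at 1.30, and smallest on day 2, at 0.41. The gene mRpL48, which encodes a protein of the central protuberance, read 128.9, 62.8 and 76.4 with LARK overexpression and 96.6, 45.9 and 25.9 in the control. Here day 3 carried most of the mean difference of 0.81 (log2, standard error 0.53, adjusted p = 0.746 from limma), at 1.56 against 0.42 and 0.45 on days 1 and 2.

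**Figure D2:**
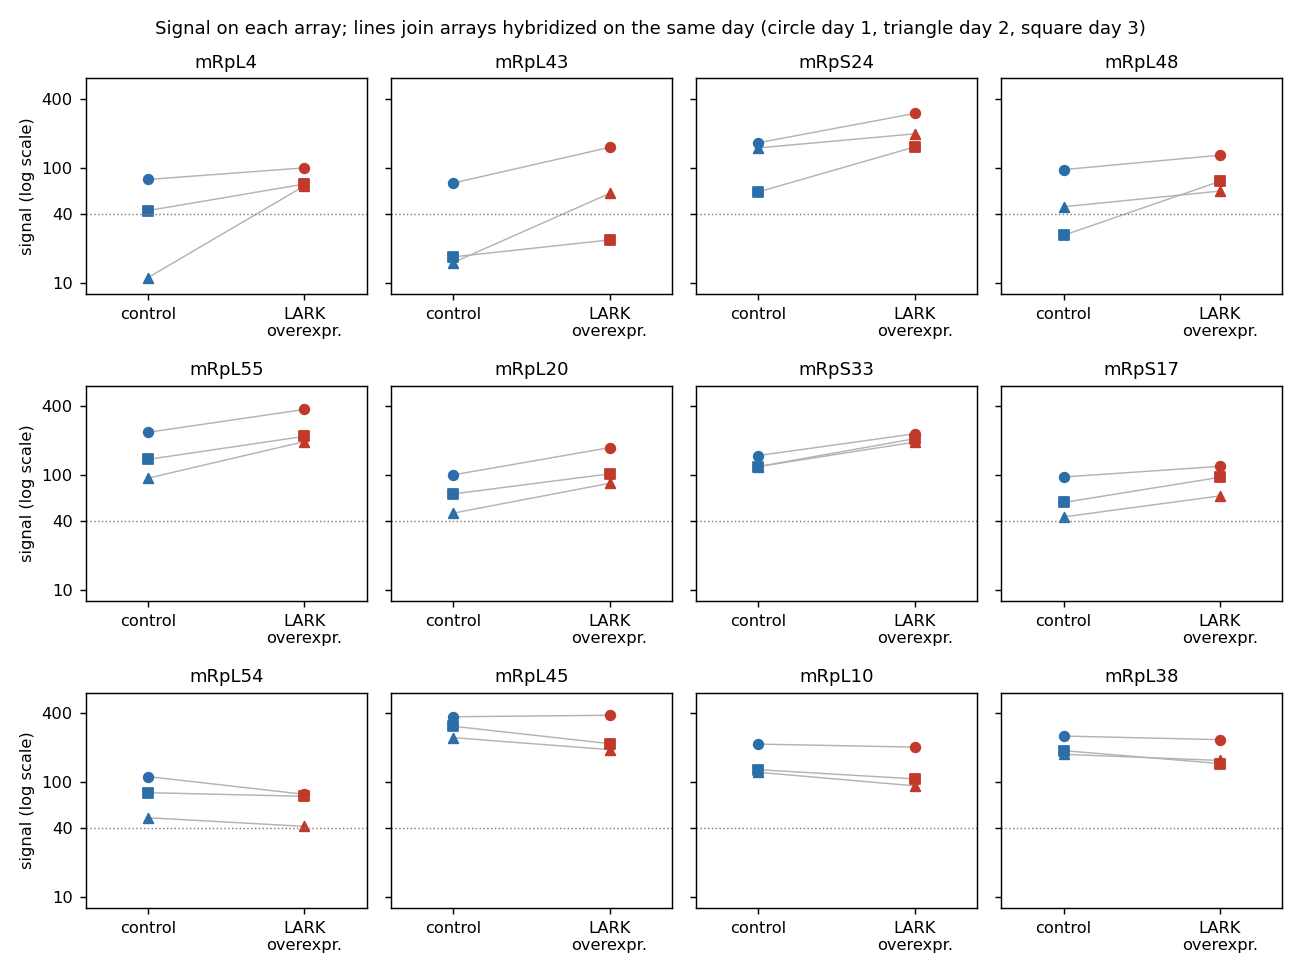
Signal (log scale, linear intensity as deposited) of 12 genes on the 3 control and the 3 LARK overexpression arrays. Circles, triangles and squares are days 1, 2 and 3, lines join the arrays of a day, and the dotted line marks a signal of 40. In the upper 8 genes each line slopes upward from control to LARK overexpression, most evenly for mRpS33, whereas in mRpL54, mRpL45, mRpL10 and mRpL38 the lines are nearly flat or slope downward.

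Because days 1, 2 and 3 were scaled differently, the comparison was repeated with the replicate number, and so the day, as a block. By this fit 0 members passed as well, at a smallest adjusted p = 0.148 from limma, and 7 had an unadjusted p under 0.05, 10.9% of the members where 20.2% of all kept probe sets did. The block narrowed the standard error of mRpS33 from 0.43 to 0.17 and that of mRpL20 from 0.48 to 0.18. When a variance prior that follows signal and is robust to outliers was added to the block, 3 members were called higher, mRpL55, mRpS24 and mRpS33 (adjusted p = 0.0327, 0.0464 and 0.0387 from limma), and 0 lower. That is 4.69% of the members called higher, where the rule called 1.51% of all kept probe sets higher and 4.55% lower. After each array was centered on its median, 18 members (28.1%) had an unadjusted p under 0.05, against 20.8% of all kept probe sets, and none passed after adjustment (smallest adjusted p = 0.0786, for mRpL20).

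Centering also moved the small differences. The median log2 difference of the members became 0.36, with 60 members above 0 and 4 below (mRpL38, mRpL10, mRpL45 and mRpL54), while that of all kept probe sets became 0.13. The centered signals of the genotypes were separated upward for 27 members (42.2%), among them mRpL4, mRpL48, mRpL55, mRpL20, mRpS33 and mRpS17, against 18.1% of all kept probe sets, and downward for 0 members, against 10.5%.

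Below 0 lay 15 of the 43 large subunit genes and 6 of the 21 small subunit genes. The 10 lowest log2 differences belonged to mRpL genes, and the next, that of mRpS18C, was -0.11. The lowest was that of mRpL54, which read 78.7, 41.4 and 75.6 with LARK overexpression and 112.2, 49.2 and 81.3 in the control. It was lower within each day, and the mean difference was -0.29 (log2, standard error 0.48, adjusted p = 0.9993 from limma). Next came mRpL45, which encodes a protein near the exit of the peptide tunnel, at 383.4, 192.7 and 217.1 with LARK overexpression and 372.0, 244.7 and 307.6 in the control. Its arrays differed little on day 1 and were lower with LARK overexpression on days 2 and 3, with a log2 difference of -0.27 (standard error 0.46). For mRpL38, mRpL40 and mRpL16 the log2 differences were -0.22, -0.17 and -0.17, each with an adjusted p = 0.9993 from limma.

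Among the proteins of the stalk, which recruits translation factors to the ribosome, the genes lay near 0 or slightly below. The gene mRpL10, for the base of the stalk, read 202.6, 93.2 and 107.1 with LARK overexpression and 215.1, 122.3 and 128.9 in the control. All 3 days were lower, at -0.25 on average (log2, standard error 0.48, adjusted p = 0.9993 from limma). The gene mRpL12 encodes the arms of the stalk, and in mammals its protein also binds the mitochondrial RNA polymerase. It read 235.8, 148.4 and 176.6 with LARK overexpression and 250.9, 136.4 and 168.3 in the control, which is a mean difference of 0.03 (log2, interval -0.93 to 0.998) at signals that overlapped. For mRpL11 the log2 difference was 0.10 (standard error 0.46), at -0.21, 0.51 and 0.01 on the 3 days.

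At the exit of the peptide tunnel, where proteins of the inner membrane emerge, 3 of 5 genes lay above 0. The log2 difference was 0.32 for mRpL24, 0.15 for mRpL23, 0.21 for mRpL44, -0.07 for mRpL22 and -0.27 for mRpL45. The signals of mRpL22 were 44.8, 46.2 and 14.9 with LARK overexpression and 35, 31.5 and 32.2 in the control, under or close to 40 on every array. The central protuberance, which contacts the small subunit, held genes at both ends of the range, with mRpL48 and mRpL18 at 0.81 and 0.45 and mRpL38, mRpL40 and mRpL46 at -0.22, -0.17 and -0.15 on the log2 scale. A group of 8 large subunit core genes whose proteins bacteria share held mRpL2, mRpL3, mRpL4, mRpL13, mRpL15, mRpL16, mRpL17 and mRpL20. Of these 7 lay above 0, the exception being mRpL16. On days 1, 2 and 3 the number above 0 was 4, 6 and 7, and the day 1 median log2 difference was -0.02.

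In the small subunit, 15 of 21 genes lay above 0 with a median log2 difference of 0.18, and in the large subunit 28 of 43 with a median of 0.14. The 4 genes taken here for the head of the small subunit (mRpS7, mRpS9, mRpS29 and mRpS35) were all above 0. Their log2 differences were 0.01, 0.27, 0.27 and 0.29, and they are not a full list of its proteins. The GTP-binding protein gene mRpS29, known in mammals as DAP3, read 227.9, 118.6 and 166.6 with LARK overexpression and 211.3, 107.1 and 113.3 in the control. Each day was higher, by 0.11, 0.15 and 0.56 on the log2 scale (standard error of the mean difference 0.47, adjusted p = 0.9993 from limma). For mRpS35 the log2 difference on day 1 was -0.02, and on days 2 and 3 it was 0.29 and 0.60. The 8 genes taken here for the body of the small subunit had a median log2 difference of 0.01. Among them mRpS17 was highest at 0.55 (standard error 0.47) and mRpS18C lowest at -0.11. The 3 S18 genes, mRpS18A, mRpS18B and mRpS18C, stood at 0.19, -0.05 and -0.11 on the log2 scale. The subunits were assigned by gene name, and in mammals the counterparts of mRpS18A and mRpS30 sit in the large subunit.

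Divided by number, 36 members carry the number of a protein that bacteria also have (up to L36 and S21) and 28 a higher number. A few proteins with higher numbers have since been placed in bacterial families in mammals, such as those of mRpL47 and mRpS24. In the first set 28 of 36 genes lay above 0 (median log2 difference 0.15, middle 50% of the genes from 0.03 to 0.29), and in the second 15 of 28 (median 0.18, from -0.13 to 0.40). The higher-numbered genes were thus spread more widely and held 5 of the 7 differences over 1.5-fold. No difference between these groups was tested.

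Closest to 0 were mRpL49, mRpS7 and mRpL50, at -0.01, 0.01 and -0.02 on the log2 scale. The signals of mRpS7 were 580.6, 310.8 and 361.3 with LARK overexpression and 528.6, 327.4 and 369.0 in the control, so the arrays of each day nearly coincided. Both genes with a second probe set had a dim one. The other mRpL11 probe set read 8.7 to 43.2 over the 6 arrays with a log2 difference of -0.43 (standard error 0.63), and the other mRpL12 probe set 6.7 to 46 with -0.61 (standard error 0.60), so both pointed away from the brighter probe set of their gene.

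The genes that work beside these proteins in mitochondrial gene expression were spread more widely, at lower signals. The median signal of the kept genes was 67.15, against 129 for the members, and 12 of 32 genes read above 40 on all 6 arrays. This list holds 32 genes by symbol, namely ribosomal proteins under other names, translation factors, mitochondrial tRNA synthetases and factors of mitochondrial DNA and RNA. Of these 27 were above 40 on at least 1 array, 19 with a log2 difference above 0 and 8 below, and the median was 0.12. By limma 0 were called higher and 0 lower. With the block and robust prior the rule called 1.51% of all kept probe sets higher and 4.55% lower. Of these 27 genes it called 0 higher and 1 lower, the tRNA synthetase gene AspRS-m. It read 83.6, 41.7 and 56.1 with LARK overexpression and 132.9, 75.8 and 152.5 in the control (mean log2 difference -0.99, adjusted p = 0.0410 by that fit and 0.475 by the plain limma fit). The small subunit gene tko read 217.5, 142.7 and 165.7 with LARK overexpression and 177.1, 131.6 and 96.9 in the control. It was higher on each day, at 0.40 on average (log2, standard error 0.45, adjusted p = 0.9993 from limma). The gene bonsai, for protein S15, read 159.8, 129.1 and 136.0 with LARK overexpression and 186.3, 114.1 and 131.3 in the control, so its mean log2 difference was 0.00 at overlapping signals.

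The tRNA synthetase genes ProRS-m and SerRS-m had log2 differences of 1.12 (standard error 0.59) and 1.07 (standard error 0.64), and the ribosome recycling factor gene mRRF1 had 1.06 (standard error 0.72). ProRS-m was above 40 on 1 array, and for SerRS-m the control array of day 3 read 11.7 against 52.3 and 102.7 on the other control arrays. The initiation factor gene mIF3 was at most 40 on every array and was not tested. The elongation factor genes mEFTu1, mEFTs and mEFG1 had log2 differences of 0.33, 0.04 and -0.16, and TFAM, which packages mitochondrial DNA, -0.07.

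The mitochondrial ribosomal proteins differed from the other ribosome of the cell in how they behaved over the days. The respiratory chain, like them, had a median above 0 on each day. The median log2 difference of 32 cytosolic ribosomal protein genes was 0.26 on day 1, -0.34 on day 2 and -0.39 on day 3, and -0.16 over the 3 days. Of these genes 1, RpLP0-like, was higher on all 3 days, against 30 of the 64 mitochondrial ones. This list was matched by symbol and includes genes named only as like a ribosomal protein (RpLP0-like, RpL24-like and RpL7-like). The 60 nuclear genes of the respiratory chain and ATP synthase had medians of 0.44, 0.15 and 0.11 on the 3 days and 0.23 over them, with 36 higher on all 3 days. Their median lay 0.29 above that of all kept probe sets, against 0.22 for the mitochondrial ribosomal proteins. After centering, 40 of the 60 were separated upward between genotypes, against 27 of the 64. The upward distance was thus not particular to the mitochondrial ribosome. Limma called 0 genes of either list in either direction. With the block and robust prior it called 1 of the 60 respiratory chain genes higher, SdhB (adjusted p = 0.0471 from limma), and 0 cytosolic ones. This share was close to the 1.51% of all kept probe sets that the rule called higher. The lists share the 6 arrays and RNA samples, and the differences between them were not tested.

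**Figure D3:**
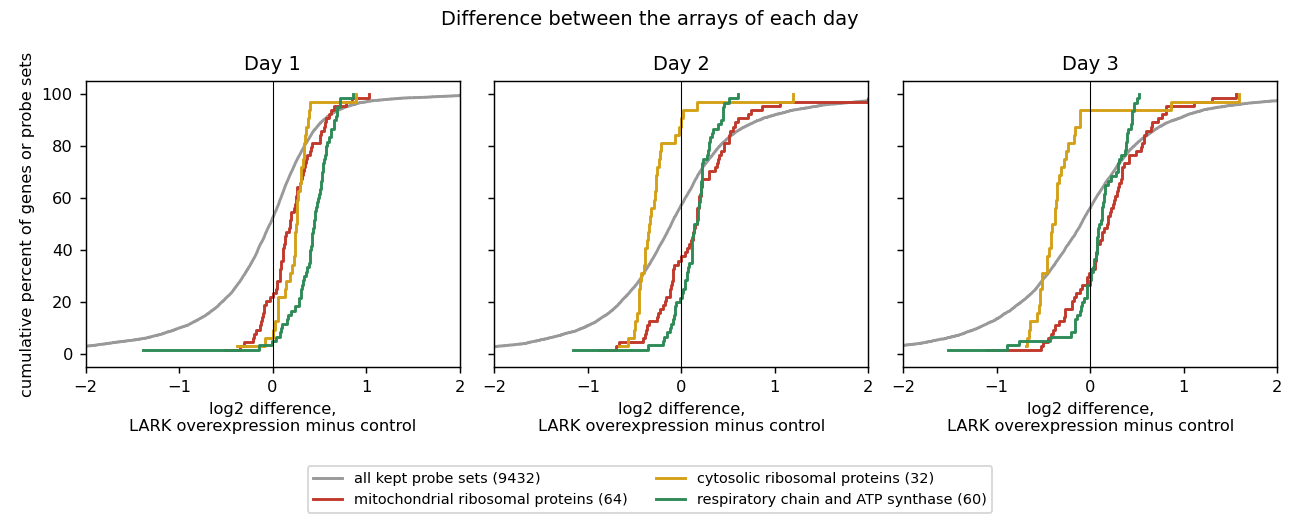
Cumulative percent (vertical axis) of genes or probe sets at or below a log2 difference between genotypes (LARK overexpression minus control, horizontal axis, shown from -2 to 2) on each of the 3 days. The curve of the 64 mitochondrial ribosomal protein genes crosses 50% at 0.19, 0.15 and 0.18, while that of 32 cytosolic ribosomal protein genes moves from 0.26 on day 1 to -0.34 and -0.39.

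The distance of the members from the other probe sets can also be read array by array. This uses the same signals as the distance above and is no separate evidence for it. On each day the median signal of the members was higher with LARK overexpression, and that of all probe sets was lower. On the log2 scale the median member signal lay 0.86, 0.73 and 0.74 above the median of all kept probe sets on LARK overexpression arrays 1, 2 and 3, and 0.49, 0.51 and 0.50 above it on control arrays 1, 2 and 3. The genotypes did not overlap in this measure, which uses no scaling between arrays, though the arrays of a genotype repeat 1 RNA sample. It parted the arrays in the same way as the eIF-4a ratio of 6.05 to 6.52 against 2.81 to 3.02 and the actin ratio, while the GAPDH ratio overlapped between genotypes, and the part of RNA quality in it was not tested. Leaving out 1 array at a time kept the members between 0.16 and 0.30 above the median log2 difference of all kept probe sets, and 0.27 above it with days 2 and 3 alone.

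**Figure D4:**
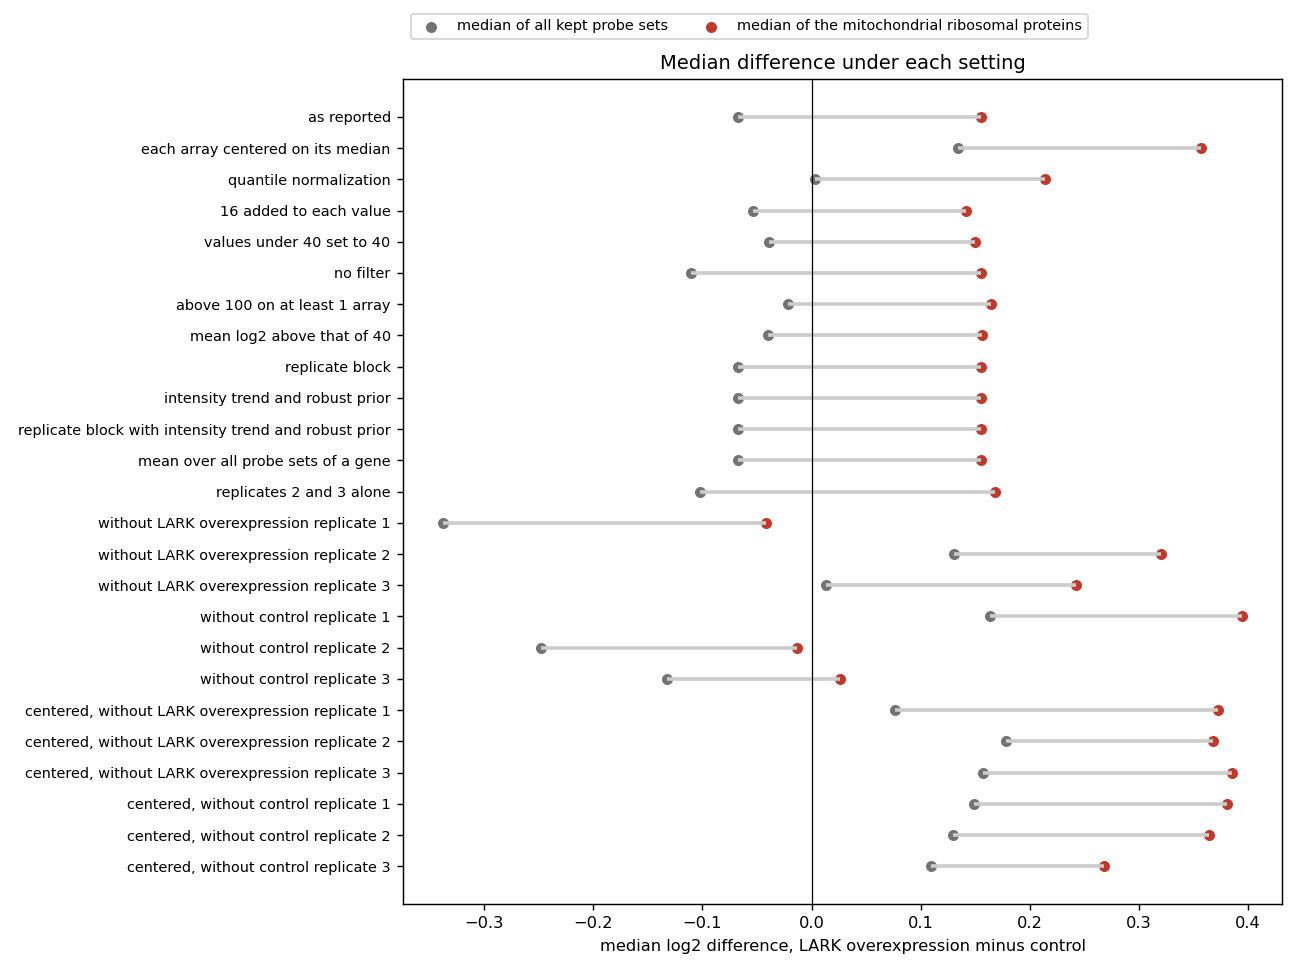
Median log2 difference between genotypes (horizontal axis) of the 64 mitochondrial ribosomal protein genes (58 and 61 of them with the stricter filters; red) and of all kept probe sets (grey) under each setting, 1 row per setting. The red point moves from -0.04 to 0.40 when an array is left out without centering, but it lies to the right of the grey point in every row. Centering, the block and the variance prior cannot change the distance between the points, so those rows are not separate checks of it.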

How the data were processed

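RNA of adult heads was measured on 6 DrosGenome1 arrays (Affymetrix), 3 per genotype. Values are linear signal intensities as deposited. The submitters' notes name MAS5 for them, while the paper's methods describe GCRMA. No settings were found, and MAS5 signals near the floor are noisy. The 44 array controls were left out. Of 13966 probe sets the annotation gives 12443 a single symbol. The 9432 probe sets whose signal exceeded 40 on 1 or more arrays entered a linear model of log2 signal on genotype (limma 3.58.1, R 4.3.3, 2-sided, Benjamini-Hochberg over all kept probe sets, calls at an adjusted p under 0.05). The script was tested on simulated data.

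Replicate numbers mark a shared hybridization day, so they pair the arrays. Deviations of same-numbered arrays from their genotype means correlated at 0.0936, 0.172 and 0.0256 over all kept probe sets and at 0.436, 0.331 and 0.226 over the members. Alternatives covered scaling, offset, floor, filter, variance prior, block, probe set choice and left-out arrays. Members and lists were chosen with earlier results of these data known. Lists were matched by symbol, and 2 wrongly assigned genes (wap, scu) were dropped from the comparison lists after values were seen. Named are the members past the test, the 6 highest and 6 lowest differences, the genes separated between genotypes (at most 6 each way), the 3 nearest to 0, fixed genes of the stalk, tunnel exit and small subunit head, genes with several probe sets, and tko, bonsai and 4 pathway genes with the largest differences. Further genes were named to describe their structural groups.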

Additional observations from a re-analysis of the deposited data

How the results depend on the processing

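The distance between the members' median log2 difference and that of all kept probe sets was above 0 under every alternative run. Centering, the block and the variance prior cannot change this distance. Those runs, and the centered runs with an array left out, therefore do not test it anew. Only the replicate block with intensity trend and robust prior (3 members higher), and the centered arrays without LARK overexpression replicate 1 (mRpS33, adjusted p = 0.0446 from limma), called a member. The replicate block alone called 0 higher and 0 lower. Centering each array gave a median of 0.36 for the members, 0.34 for the large and 0.39 for the small subunit, with 4 members below 0, and turned 17 members from below to above 0. Quantile normalization gave 0.21 for the members and 0.20 for the large subunit, adding 16 gave 0.13 for the large subunit, and days 2 and 3 alone 0.19. The distance from all kept probe sets, 0.22 as reported, was 0.27 without a filter, 0.19 with a filter above 100 and 0.27 on days 2 and 3 alone. Leaving out 1 array gave medians of -0.042 (without LARK overexpression replicate 1) to 0.40 (without control replicate 1) for the members, -0.027 to 0.38 for the large and -0.088 to 0.49 for the small subunit, with 27 to 57 members above 0 and 7 to 37 below, because the day scalings then no longer cancel. On centered arrays the range was 0.27 to 0.39. The distance ran from 0.16 (without control replicate 3) to 0.30. Signals near 40, 6 arrays and 1 RNA sample per genotype limit all of these values.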

Other observations

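On the log2 scale the members varied less between arrays of a genotype than the kept probe sets as a whole. After centering, the median SD within a genotype was 0.20 for the 64 members and 0.33 for all kept probe sets, at median signals of 129 and 81.5. It was 0.19 for the respiratory chain list and 0.24 for the cytosolic ribosomal proteins, so this was not particular to the members. In the profile of member signals, the first LARK overexpression array was nearer to control array 1 (Pearson correlation 0.92 across the 64 genes) than to the other arrays of its own genotype (0.86 and 0.88). Array 3 of that genotype was also nearer to control array 1 (0.92) than to arrays 1 and 2 of its own (0.88 and 0.88). Over all kept probe sets, LARK overexpression array 1 was again nearest to control array 1 (0.912, against 0.877 and 0.892 within its genotype), while array 3 was nearer to array 2 of its genotype (0.946) than to control array 1 (0.867). Among controls the values over the members were 0.87 to 0.90. These correlations describe likeness of signal profiles across genes on the same arrays.

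Within the respiratory chain list, the highest log2 differences among genes above 40 on at least 1 array were those of SdhB, ND-13A, ND-19 and sun, at 0.63, 0.55, 0.48 and 0.47, each higher on all 3 days. SdhB encodes the iron-sulfur subunit of succinate dehydrogenase, and sun a subunit of ATP synthase. These genes were named after their values were seen, and limma called 0 of the list, or SdhB alone with the block and robust prior (adjusted p = 0.0471). By that rule 1.51% of all kept probe sets were called higher.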
